A study of Homo sapiens with 10 samples.

Results

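The comparison described here is that of vitamin D3 in colon cancer cells grown without macrophages. It uses 4 of the 10 arrays of the study, chosen by their titles: HCT116 alone, HCT116 with vitamin D3, Hke3 alone and Hke3 with vitamin D3. HCT116 is a human colorectal carcinoma line, and Hke3 is a clone derived from it. Vitamin D3 was given for 24 hours, and its dose, chemical form and vehicle are not given in the sources used here. Each of the 4 conditions is 1 array, so the 2 lines are the 2 pairs, and there is no replicate of a condition within a line. The study also profiled both lines cocultured with THP1 macrophages, separated from them so that only soluble factors were exchanged, and THP1 cells on their own, each with and without vitamin D3. One label field of the Hke3 vitamin D3 array (its source name) calls the cells untreated, while its title, its description and its culture field give vitamin D3, and the array was used as treated.

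Vitamin D3 acts through its hormone form, which binds the vitamin D receptor, VDR, a nuclear receptor that pairs with a retinoid X receptor and binds DNA at direct repeats of a short sequence. CYP24A1, the mitochondrial hydroxylase that starts the breakdown of the hormone, is the most responsive known target of the receptor in many tissues and closes a negative feedback loop. In colon epithelium the receptor is known for control of calcium uptake, of differentiation and of Wnt signalling.

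Values are log2 intensities. A difference is the log2 value with vitamin D3 minus the log2 value without it in the same line, and a value after ± is a standard error of the limma fit over both lines. Genes dimmer than 6.18 log2 on every one of the 4 arrays were not tested, 6.18 being the middle of all values there, and 13062 genes remained. The arrays carried the colon epithelial profile of their labels: 12 of 14 epithelial markers lay above that threshold on each of the 4 arrays, with KRT18 brightest at 14.06 to 14.23. Their summed level was 15.66 log2 in HCT116 alone and 15.56 with vitamin D3, and 15.75 and 15.71 in Hke3. Of 15 macrophage markers 4 or 5 lay above the threshold, and their summed level was 9.83 to 9.91 against 15.63 and 16.02 in the THP1 arrays. SRGN, abundant in myeloid cells, read 3.94 to 4.72 in the 4 arrays and 13.90 and 14.05 in THP1. The ACTB 3' minus 5' difference, which rises as RNA is degraded, was 0.30 in HCT116 alone and 0.25 with vitamin D3, and 0.94 in Hke3 alone and 0.72 with vitamin D3. This measure differed more between the lines than between treatments, and its part in the differences between lines was not tested.

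CYP24A1 was the 1 gene that changed with vitamin D3 in the limma fit. It read 9.99 log2 in HCT116 alone and 11.43 with vitamin D3. In Hke3 it read 10.89 alone and 12.35 with vitamin D3. Both treated arrays lay above both untreated ones. The differences were 1.44 in HCT116 and 1.45 in Hke3, a 2.72-fold and a 2.73-fold higher level, and CYP24A1 rose by 1.45 ± 0.07 on average (limma adjusted p = 0.00138, higher in 2 of 2 lines). In THP1 alone it read 4.51, below the threshold, and with vitamin D3 10.40, so the macrophage line started from a far lower level and reached a level near that of the untreated tumour lines. That pair has no replicate and no test. Without pairing by line, limma called 0 genes (adjusted p = 1 for CYP24A1, 27 genes at an unadjusted p under 0.05). Leaving out 1 of the 4 monoculture arrays from the fit over 8 arrays left 1 complete monoculture pair. The CYP24A1 difference was then that of the remaining line, 1.44 or 1.45. The error of such a fit comes from the coculture arrays alone, so it cannot decide whether the call holds.

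Limma called 1 of 13062 genes, or 0.00766%, at an adjusted p of 0.05, and it was higher. At an unadjusted p of 0.05 it took 975 genes (7.46%), of which 234 were higher (1.79%) and 741 lower (5.67%). With trend and robust fitting limma called 24 genes, 8 higher and 16 lower. A gene counted as moving the same way by size where both lines passed 1.5-fold: 3 genes were higher (0.023%), CYP24A1, FN1 and SERINC2, and 1 was lower (0.00766%), AMIGO2. Past a log2 difference of 0.32 in both lines 11 were higher (0.0842%) and 26 lower (0.199%), and past 2-fold CYP24A1 was the 1 gene. Across the 13062 genes, which are not independent, Pearson's r between the 2 lines' differences was 0.09 and Spearman's rho 0.06, and without CYP24A1 r was 0.08. By sign alone, 15.7% of genes were above 0 in both lines, 37.8% below 0 in both and 46.5% opposite. The median difference over all genes was -0.04 in HCT116 and -0.02 in Hke3, and after each array was centred on its median 25.9% were above and 25.9% below in both. Genes past 1.5-fold numbered 17 in HCT116, 7 of them higher, and 23 in Hke3, 17 of them higher. Whether the lines differ in these counts was not tested.

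**Figure D1:**
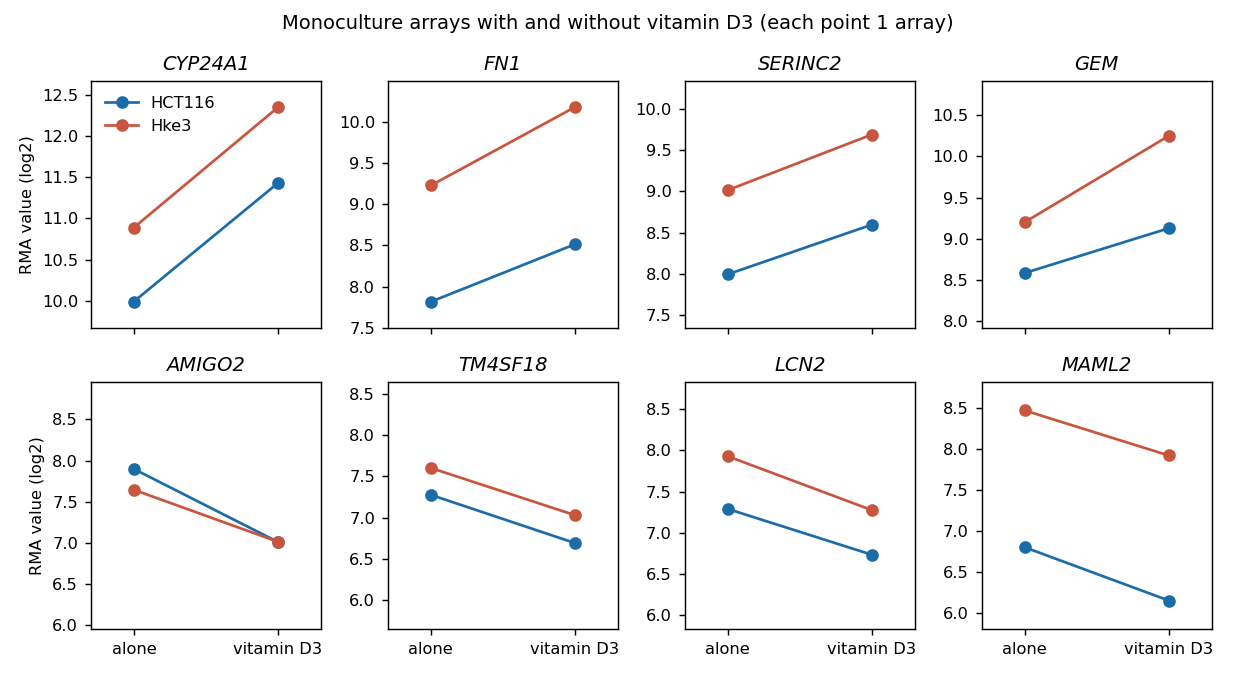
Log2 values (vertical axis, 3 log2 units in every panel) on the 4 monoculture arrays for the 4 genes most higher and the 4 most lower in both lines, each point being 1 array and each line joining the untreated and treated array of a cell line. CYP24A1 goes from 9.99 to 11.43 in HCT116 and from 10.89 to 12.35 in Hke3, and AMIGO2 reaches 7.01 in both treated lines.

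**Figure D2:**
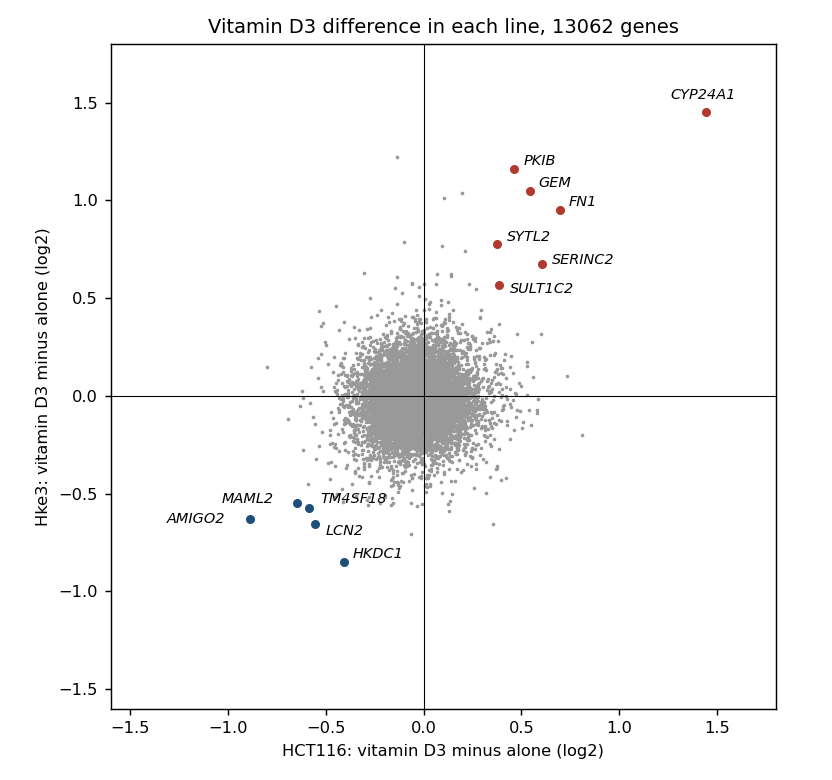
Vitamin D3 minus alone in Hke3 (vertical axis, log2) against the same in HCT116 (horizontal axis, log2) for the 13062 genes, each grey point 1 gene and named genes in colour. CYP24A1 lies alone at 1.44 and 1.45, and over all 13062 genes r is 0.09.

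The genes with the largest shared differences were ranked by the smaller of their 2 differences, and 15 in each direction are described. They were chosen on these arrays, so their sizes are descriptions. The 15th higher gene had a smaller difference of 0.294 and the 16th of 0.293, and for the lower genes these were 0.353 and 0.353, so the list ends at no natural break. Other than CYP24A1 no gene of the 30 passed the limma threshold (lowest adjusted p = 0.111). Both treated arrays lay above both untreated arrays for 7 of the 15 higher genes, against 4.33% of all genes tested, and both lay below for 7 of the 15 lower genes, against 11.5%. The genes were selected on these differences, so the counts describe them only. Among the genes counted, LINC00470, TTLL1-AS1 and GPR158 exceeded the threshold only on arrays of the group where they are higher.

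The genes of extracellular matrix and adhesion come first. FN1, which encodes the matrix glycoprotein fibronectin, read 7.81 in HCT116 alone and 8.51 with vitamin D3, and 9.23 and 10.18 in Hke3. The differences of 0.70 and 0.95 gave a mean of 0.82 ± 0.08 (limma adjusted p = 0.111), and 4 further FN1 probe sets moved the same way. The level in Hke3 alone was above that in HCT116 with vitamin D3, so the groups overlapped. COL1A1, a type I collagen chain, read 7.95 and 8.31 in HCT116 and 8.62 and 8.93 in Hke3, a mean of 0.33 ± 0.07 (limma adjusted p = 0.455). One of its 3 other bright probe sets had a mean of opposite sign, and averaging them gave 0.15. HAPLN1, a link protein that joins proteoglycans to hyaluronan, read 6.27 and 6.66 in HCT116 and 6.38 and 6.74 in Hke3, close to the detection threshold. SPP1, the secreted phosphoprotein osteopontin and a known VDR target, was below the threshold in HCT116 at 5.08 and 5.43, so its difference there is approximate, and read 6.68 and 7.01 in Hke3. In the opposite direction, AMIGO2, a leucine-rich repeat adhesion protein, read 7.90 in HCT116 alone and 7.01 with vitamin D3, and 7.65 and 7.01 in Hke3. Its mean difference was -0.76 ± 0.08 (limma adjusted p = 0.111) and the treated and untreated arrays did not overlap. Of 11 fibroblast markers, a list that includes COL1A1 as its brightest member, 3 or 4 lay above the threshold, and their summed level went from 9.90 to 10.00 in HCT116 and from 10.05 to 10.22 in Hke3. By their labels the arrays hold cultures of a single carcinoma line each, so these values describe RNA of the lines themselves. COL1A1 was itself chosen here as a higher gene.

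The remaining higher genes had varied roles, and none was called except under some of the alternative settings given below. SERINC2, a serine incorporator family membrane protein, read 7.99 in HCT116 alone and 8.60 with vitamin D3, and 9.02 and 9.69 in Hke3, a mean of 0.64 ± 0.07 (limma adjusted p = 0.111), and 0.27 with its probe sets averaged (limma adjusted p = 0.415). GEM, a small GTPase that inhibits voltage-gated calcium channels, read 8.58 and 9.13 in HCT116 and 9.20 and 10.25 in Hke3. PKIB, an inhibitor of protein kinase A, read 9.35 and 9.81 in HCT116 and 8.26 and 9.42 in Hke3, and its difference was larger in Hke3 (1.16) than in HCT116 (0.46). Neither gene passed the test (limma adjusted p = 0.279 for GEM and 0.427 for PKIB). SYTL2, a synaptotagmin-like protein of vesicle docking, was higher by 0.38 and 0.78, and CHRNA3, a nicotinic receptor subunit, by 0.60 and 0.32. The other bright CHRNA3 probe set had a mean of opposite sign, and averaging them gave 0.098. SULT1C2, a sulfotransferase, read 7.16 and 7.55 in HCT116 and 6.93 and 7.50 in Hke3. Averaging probe sets gave 0.28 for SULT1C2. In THP1 it read 4.88 alone, below the threshold, and 11.17 with vitamin D3. There FN1 was higher by 2.68, SPP1 by 2.48 and SERINC2 by 1.46 (1 pair, no test), while PKIB was lower by 0.21. EGR3, an early growth response transcription factor, was higher by 0.29 and 0.44, though it was below the threshold in HCT116. The remaining higher genes were AGAP6, of a GTPase-activating family, and the noncoding LINC00470 and GATA2-AS1, with mean differences from 0.33 to 0.40. AGAP6 went to 0.165 with probe sets averaged. LINC00470 exceeded the threshold only in Hke3 with vitamin D3, so its differences are approximate.

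The lower genes had varied roles. TM4SF18, a transmembrane 4 L6 family protein, read 7.28 in HCT116 alone and 6.69 with vitamin D3, and 7.60 and 7.03 in Hke3. LCN2, the lipocalin that binds bacterial siderophores, read 7.29 and 6.73 in HCT116 and 7.93 and 7.27 in Hke3. For both genes the treated arrays lay below the untreated ones, with means of -0.58 ± 0.07 and -0.60 ± 0.07 (limma adjusted p = 0.111 for each). MAML2, a Notch coactivator, read 6.80 and 6.16 in HCT116 and 8.46 and 7.92 in Hke3, and its lines differed more than its treatments. EMP1, an epithelial membrane protein, was the brightest of them at 10.62 and 10.27 in HCT116 and 10.88 and 10.49 in Hke3. SLC1A3, a glutamate transporter, was lower by 0.44 and 0.50, DCLK1, a microtubule-associated kinase, by 0.42 and 0.47, and HKDC1, a hexokinase family protein, by 0.41 and 0.85, with HKDC1 in HCT116 at or under the threshold. SUSD2 was lower by 0.59 and 0.45, but its other bright probe set had the opposite mean. With probe sets averaged SUSD2 was -0.25, MAML2 -0.39, SLC1A3 -0.28 and HKDC1 -0.30. The other members, ANK2, TTLL1-AS1, MMRN2, GPR158, THAP9 and PAG1, had mean differences from -0.48 to -0.38. ANK2 and MMRN2 exceeded the threshold only in Hke3 alone, and TTLL1-AS1 and GPR158 only on the untreated arrays. The differences of these dim genes are approximate.

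Promoter windows are shown for a higher and a lower gene because the receptor's binding sequence can be looked for in them. RefSeq windows (GRCh38.p14, 250 bases before the gene start) were searched on both strands for the hexamer AGGTCA, its variant AGTTCA, its variant GGGTCA or its variant GGTTCA, singly and as a direct repeat with 3 bases between. That of FN1 is on the minus strand at chr2:215436069-215436318, and that of TM4SF18 on the minus strand at chr3:149333637-149333886. Capitals mark a match to 1 of the 4 hexamers.
FN1: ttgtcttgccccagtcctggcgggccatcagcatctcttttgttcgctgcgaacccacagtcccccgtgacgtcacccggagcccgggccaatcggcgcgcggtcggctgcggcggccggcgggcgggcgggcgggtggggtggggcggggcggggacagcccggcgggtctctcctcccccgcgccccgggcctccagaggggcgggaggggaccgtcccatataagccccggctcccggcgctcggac
TM4SF18: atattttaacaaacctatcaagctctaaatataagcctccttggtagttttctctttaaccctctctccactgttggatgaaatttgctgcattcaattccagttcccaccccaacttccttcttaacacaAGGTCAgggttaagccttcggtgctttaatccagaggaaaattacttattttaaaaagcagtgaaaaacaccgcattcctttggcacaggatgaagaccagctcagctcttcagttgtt
The FN1 window held no match, with a GC content of 76.4%, and the TM4SF18 window held 1, with a GC content of 40.0%. Of the 37 genes past a log2 difference of 0.32 in both lines 30 had a window. CYP24A1 had none, so its promoter was not searched. Of the 55 windows of those 30 genes 13 held a hexamer (23.6%), against 33.8% of all 35116 windows. None of the 55 held the direct repeat, against 23 windows in all (0.0655%). A match is a stretch of letters and not a shown site, and VDR often binds far from the promoter.

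VDR itself read 8.33 in HCT116 alone and 8.10 with vitamin D3, and 8.16 and 8.36 in Hke3, so its difference was -0.23 in one line and 0.21 in the other (mean -0.01 ± 0.11, limma adjusted p = 0.992). Of 20 VDR targets tested CYP24A1 alone was called. By sign 8 were above 0 in both lines and 5 below, 11 and 4 after centring. Over all genes 15.7% were above and 37.8% below, and 25.9% each way after centring. The median difference of the targets was 0.01 in HCT116 and 0.07 in Hke3, against -0.04 and -0.02 over all genes. KLK6, a serine protease, read 9.30 and 9.51 in HCT116 and 10.97 and 11.71 in Hke3. IGFBP3, which binds insulin-like growth factors, was higher by 0.14 and 0.27 but below the threshold in HCT116, and the mean of its probe sets had the opposite sign. TRPV6, the epithelial calcium channel, differed by -0.14 and 0.08. CALB2, the calcium-binding protein calretinin, was 1 of 13 calcium genes and read 9.55 and 9.90 in HCT116 and 10.33 and 10.61 in Hke3, a mean of 0.32 ± 0.07 (limma adjusted p = 0.461). Of 13 genes of the receptor's partners and vitamin D metabolism none was called, with 1 above and 4 below 0 in both lines: CYP2R1, a 25-hydroxylase, was lower by 0.17 and 0.21, and RXRA, a partner of VDR, by 0.07 and 0.06.

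Genes of Wnt signalling and of epithelial state showed no call. Of 14 Wnt and beta-catenin targets tested 3 were above 0 in both lines and 8 below, 3 and 5 after centring. The shares over all genes tested were 15.7% above and 37.8% below, and 25.9% each way after centring. AXIN2, a feedback inhibitor of the pathway, read 8.64 and 8.63 in HCT116 and 9.44 and 9.36 in Hke3, with its 2 other bright probe sets of opposite mean sign. CCND1, which encodes cyclin D1, was lower by 0.15 and 0.10, LEF1 by 0.25 and 0.10, and MMP7, a matrix protease, was higher by 0.14 and 0.61. CDH1, which encodes E-cadherin, read 10.99 and 10.95 in HCT116 and 11.28 and 11.53 in Hke3 (limma adjusted p = 0.852). A dimmer CDH1 probe set read 7.85 and 8.21 in HCT116 and 6.88 and 7.64 in Hke3, higher with vitamin D3 in both. SNAI1, a repressor of CDH1, differed by 0.02 and 0.05. Among 18 epithelial junction genes 1 was above 0 in both lines and 9 below, 4 and 6 after centring. Among 9 mesenchymal genes tested 3 were above, FN1 among them, and 4 below, VIM (-0.20 and -0.10) and MMP9 (-0.22 and -0.21) among them. DPP4, a brush border peptidase, was 1 of 9 colonic differentiation genes and was higher by 0.23 and 0.24 near the threshold.

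Of 15 immediate early genes tested none was called. By sign, 5 were above 0 in HCT116 (33.3%, against 34.6% of all genes) and 14 in Hke3 (93.3%, against 43.3%), with median differences of -0.02 and 0.32. JUN, a subunit of the AP-1 transcription factor, read 9.17 and 9.35 in HCT116 and 10.38 and 10.73 in Hke3, and EGR1 12.66 and 12.83, and 13.59 and 13.82. FOSB read 7.82 and 7.42 in HCT116 and 9.18 and 9.56 in Hke3, opposite in the lines, and KLF2 was lower in both, by 0.37 and 0.14. The 2 other bright EGR1 probe sets and the 1 other of KLF2 had a mean of opposite sign. The difference between the lines has no test with 1 array a condition. The ACTB difference quoted above also separates the lines, and its part here was not tested.

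Counts of the growth factor and stress lists, none of which held a called gene, leaned in different directions. Of 19 RAS-MAPK output genes 2 were above 0 in both lines and 12 below, 11 after centring, with median differences of -0.08 and -0.10. SPRY4, a feedback inhibitor of RAS signalling, was lower by 0.16 and 0.45 and ETV5, an ETS factor, by 0.29 and 0.19. Of 9 NRF2 targets 8 were below 0 in both lines, also after centring, among them GCLC, of glutathione synthesis (0.10 lower in each line). Of 7 metallothioneins 6 were below 0 in both, 5 after centring, with MT2A lower by 0.14 and 0.15 and MT1H by 0.32 and 0.11. Of 15 ATF4 targets 9 were below and 2 above, TRIB3 (-0.19 and -0.22) and SLC7A5 (-0.18 and -0.24) against DDIT3 (0.15 and 0.13). The counts of hypoxia genes (14 of 18 below) and mitosis genes (12 of 20 below) went to 6 and 4 after centring. Heat shock genes (8 tested) were 3 above 0 in both lines and 3 below, 4 and 0 after centring. ER chaperones (15 tested) were 2 above and 3 below, 4 and 2 after centring, and p53 targets (15 tested) 2 and 5, 8 and 1 after centring. Over all genes 15.7% were above 0 in both lines, 25.9% after centring, and 37.8% were below 0 in both lines, 25.9% after centring.

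Among the remaining lists, 4 of 13 TGF-beta and BMP response genes were above 0 in both lines and 4 below. ID2, an inhibitor of DNA binding, read 11.90 and 12.14 in HCT116 and 11.51 and 11.81 in Hke3. ID3 was higher by 0.16 and 0.35, ID1 by 0.10 and 0.16 and SMAD7, an inhibitory SMAD, by 0.27 and 0.20. The 4 below were PMEPA1 (-0.07 and -0.32), SMAD6 (-0.09 and -0.08), LTBP1 (-0.03 and -0.08) and SKIL (-0.02 and -0.04). PMEPA1 exceeded the threshold only in Hke3 alone. NF-kB and IL-1 response genes had medians of -0.05 and 0.11, and IL1B, an inflammatory cytokine, differed by -0.16 and 0.11. CDKN1A, the cell cycle inhibitor p21 and a known VDR target, read 10.23 and 10.31 in HCT116 and 10.87 and 10.90 in Hke3 (limma adjusted p = 0.898). After centring, 7 of 20 DNA replication genes were above 0 in both lines and 4 below, 7 of 16 oxidative phosphorylation genes above and 2 below, 5 of 12 ribosomal protein genes above and 1 below, and 3 of 12 cholesterol genes above and 4 below. Those of the interferon list (12 tested) were 3 and 3, and of the death receptor list (13 tested) 5 and 3. None of these lists held a called gene. For comparison, 15.7% of all genes tested were above 0 in both lines and 37.8% below, and 25.9% each way after centring.

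**Figure D3:**
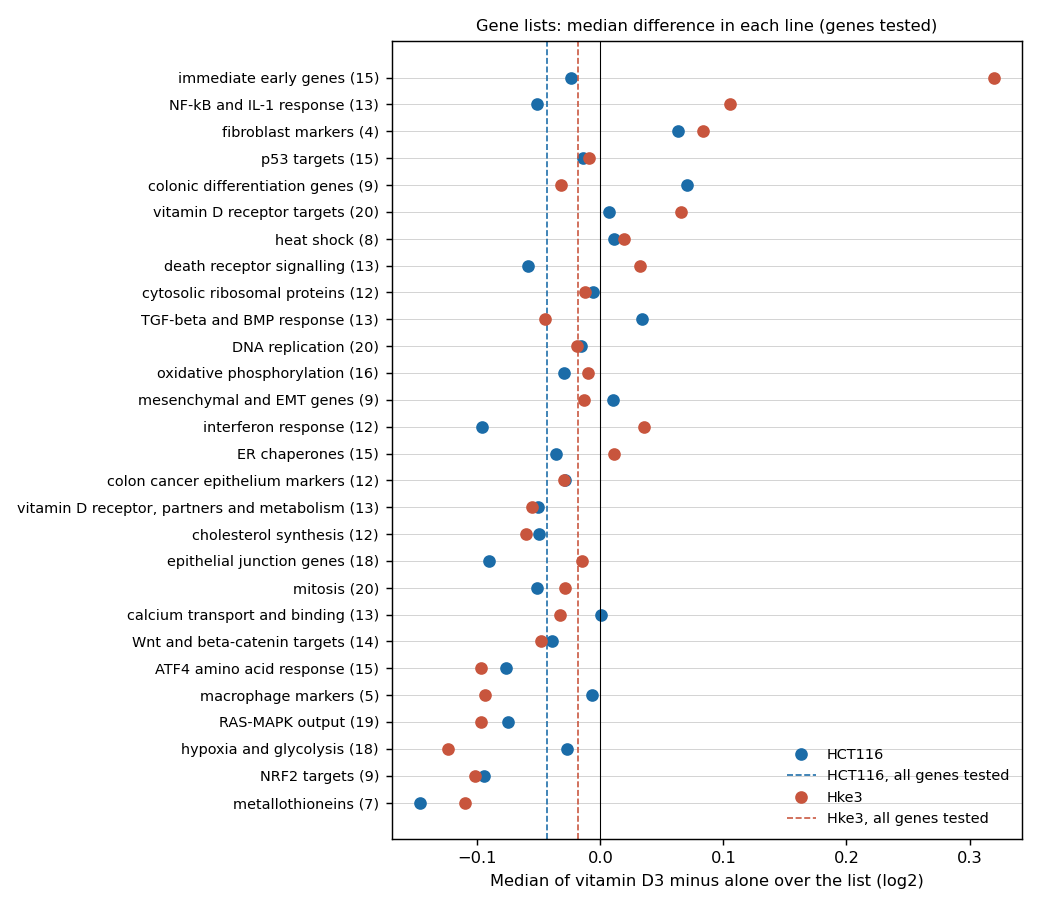
Median of the vitamin D3 differences over each gene list (horizontal axis, log2) in HCT116 and in Hke3, with the number of genes tested in brackets and dashed lines at the medians of all genes, -0.04 and -0.02. Immediate early genes lie at -0.02 in HCT116 and 0.32 in Hke3, the widest gap between the lines.

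Some genes went opposite ways. IL32, a cytokine, read 6.93 and 6.48 in HCT116 and 5.72 and 6.18 in Hke3, and CXCL8, a neutrophil chemokine, 5.14 and 4.62, below the threshold, in HCT116 and 7.39 and 7.75 in Hke3. LIPG, an endothelial lipase, and GABBR2, a GABA receptor subunit, were also lower in HCT116 and higher in Hke3. NSD1, a histone methyltransferase, read 7.78 and 8.18 in HCT116 and 8.90 and 8.47 in Hke3, and HINT3 was higher by 0.36 in HCT116 and lower by 0.66 in Hke3. SLC25A25-AS1, GHDC and KCNH4 went the same way as NSD1. IL32 in Hke3 was at or under the threshold, and LIPG exceeded it only in Hke3 with vitamin D3. GABBR2 and KCNH4 exceeded it only on the higher array of each line. The other bright probe sets of HINT3 and CXCL8 had a mean over both lines of opposite sign. All the genes of this paragraph were chosen for moving opposite ways.

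The same contrast in coculture, taken by label, ran the other way for the leading genes. CYP24A1 read 10.68 in the HCT116 coculture labelled as without vitamin D3 and 9.70 in that labelled as with it, and 12.25 and 10.89 for Hke3. CYP24A1 was thus lower by label in coculture and higher in monoculture and in THP1, so directions in coculture are given by label only. The limma interaction of vitamin D3 with coculture, over 8 arrays and 13062 genes, called 6 genes (0.0459%). CYP24A1 differed by -2.62 ± 0.13 between coculture and monoculture (limma adjusted p = 0.00208), and FN1 by -1.68 ± 0.13 (limma adjusted p = 0.0248). AMIGO2, MAML2, EMP1 and GDA, a guanine deaminase, had positive interactions, from 0.96 to 1.32. With no filter on dim genes 1 gene was called, and with trend and robust fitting 227. With the coculture vitamin D3 labels turned, an alternative added after seeing the data, 0 genes were called by limma (1028 at an unadjusted p under 0.05). CYP24A1 was then -0.28 ± 0.13 (limma adjusted p = 0.663) and FN1 0.027 ± 0.13 (limma adjusted p = 0.975). Turning the labels reverses every coculture difference, so genes called for opposite signs come closer by construction. A label error and an effect of coculture cannot be told apart with these arrays, and neither was tested. GDA lies outside the 30 genes, was named after its values were seen, and was lower by 0.35 and 0.51 in monoculture. Of the 11 genes higher past a log2 difference of 0.32 in monoculture 9 were below 0 in both coculture pairs, against 26.1% of all genes, and of the 26 lower genes 19 were above 0 in both, against 34.1%. Turning those labels reverses every coculture sign, so the 9 genes would be above 0 and the 19 below. The shares of all genes stay the same. In THP1 8 of the 11 and 15 of the 26 were above 0, against 48.3%. The coculture and THP1 arrays played no part in the choice of these genes.

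**Figure D4:**
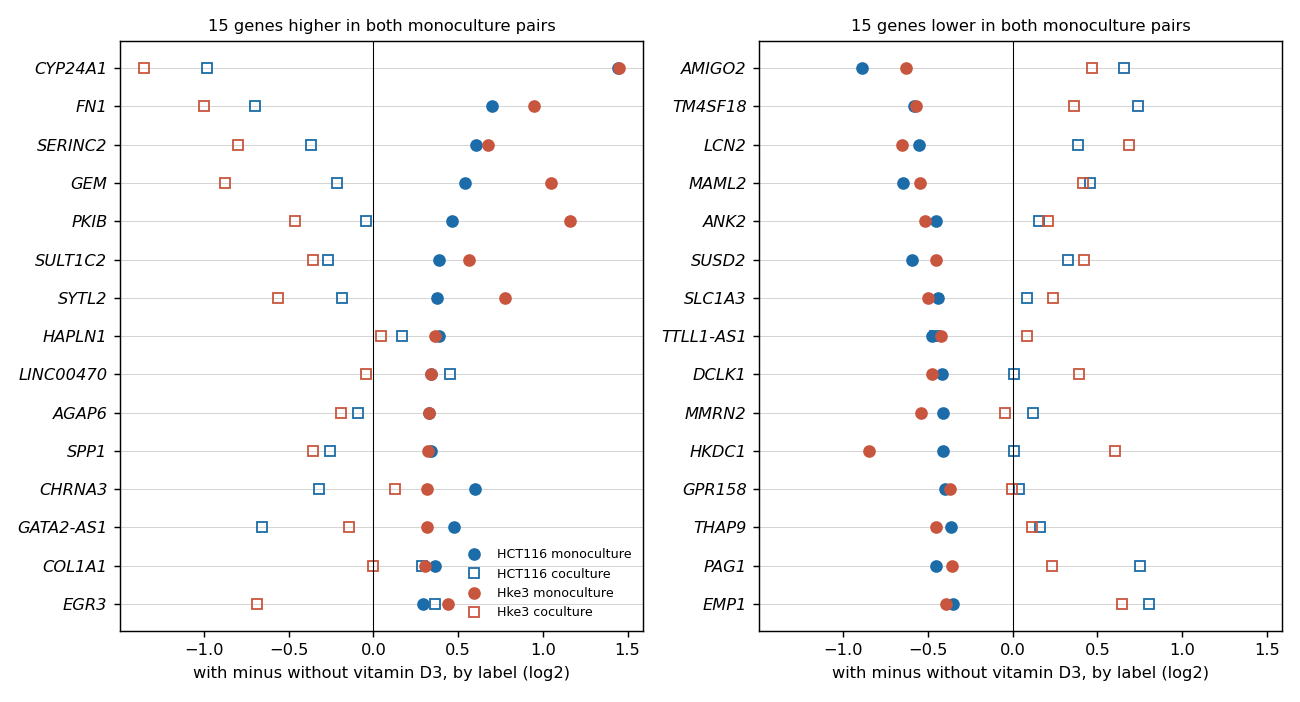
Log2 difference with minus without vitamin D3 by label (horizontal axis) for the 15 genes higher and the 15 lower in both monoculture pairs, filled circles for monoculture and open squares for coculture, in both lines. CYP24A1 lies at 1.44 and 1.45 in monoculture and at -0.98 and -1.36 in coculture.

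The error of these tests is the variation of the difference between 2 related lines, with 1 residual degree of freedom and a prior spread drawn from all genes. Calls therefore rest on agreement of the lines and on that prior, and culture-to-culture variation within a line was not measured.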

How the data were processed

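The values are the authors' own log2 intensities on a 3' expression array, produced by RMA in the R package affy per the submitters' processing notes. No version is given in the sources used here. RMA corrects background, quantile-normalises and summarises probes, which can hide a shift shared by most genes. Of 54675 probe sets 41097 map to 1 gene, 1801 to several (left out) and 11777 to none; 41043 were matched by Entrez ID. Each of 19775 genes took its probe set with the highest mean. Array medians were 6.16 to 6.21. The small number of arrays limits the precision.

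For the 4 arrays a limma model (version 3.58.1, R 4.3.3) took cell line as the block and vitamin D3 as the effect, two-sided, with Benjamini-Hochberg adjustment at 0.05. The interaction was fitted on 8 arrays with 2 residual degrees of freedom. The numbers pair arrays by cell line, and p-values measure only the spread between these arrays. Genes named are those with the 15 largest shared differences each way, the 5 with the smallest limma p each way, the 5 largest opposite ones of each kind, up to 4 members of each list with 1 sign in both lines by the smaller difference, and 8 genes always named, without Y-linked genes and XIST. The members and the 28 gene lists were chosen with earlier results of these data known. Tested on simulated data with 50 genes changed at each size, the fit called 49 of 50 at 1.5-fold and all 50 at 2-fold. There were 18 false calls among 217, a share above the 0.05 aimed at. So many changed genes loosen the Benjamini-Hochberg cutoff, so these rates do not carry over to the real arrays. There FN1, SERINC2 and AMIGO2 passed 1.5-fold in both lines and were not called. Alternatives were other filters, probe set rules, scalings, fits and left-out arrays. Figures used matplotlib 3.10.9 in Python 3.11.15.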

Additional observations from a re-analysis of the deposited data

Results flagged for a closer look

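For 6 genes the vitamin D3 difference itself differed between coculture and monoculture in the limma interaction, over 2 lines in each setting. The interaction, coculture minus monoculture, was -2.62 for CYP24A1 and -1.68 for FN1. It was 1.32 for AMIGO2, 1.10 for EMP1, 1.03 for MAML2 and 0.96 for GDA (limma adjusted p from 0.00208 to 0.0423). In each of the 6 genes both coculture pairs, taken by label, had the opposite sign to both monoculture pairs. With the coculture vitamin D3 labels turned limma called 0 of 13062 genes (1028 at an unadjusted p under 0.05). The values were then -0.28 for CYP24A1, 0.027 for FN1, 0.20 for AMIGO2, -0.35 for EMP1, 0.16 for MAML2 and -0.10 for GDA. Genes called for opposite signs come closer by construction when the labels are turned. A label error and an effect of coculture cannot be told apart with these arrays.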

How the results depend on the processing

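With CYP24A1 called in each, limma called 4 genes with a filter at the 75th percentile (8.16 log2), 4 with probe sets averaged per gene, 3 with cyclic loess and 24 with trend and robust fitting (8 higher, 16 lower). The others were FN1, MAML2 and SERINC2 with that filter, AMIGO2, LCN2 and TM4SF18 with averaging, and FN1 and SERINC2 with cyclic loess. With trend and robust fitting the 8 higher genes were CYP24A1, FN1, GEM, SERINC2, SYTL2, SULT1C2, CALB2 and ID2. Without the replicate block, that is without pairing by cell line, limma called 0 genes, with 27 at an unadjusted p under 0.05. Leaving out any of the 4 monoculture arrays from the 8-array fit left 1 complete monoculture pair, with an error from the coculture arrays alone. The CYP24A1 difference was then 1.44 or 1.45, and such fits cannot decide whether its call needs both lines. With each probe set on its own, 8 probe sets passed 1.5-fold the same way in both lines, 6 higher and 2 lower, several of them of FN1. Genes moving the same way numbered 1 past 2-fold and 37 past a log2 difference of 0.32. The interaction calls numbered 227 with trend and robust fitting and 1 with no filter on dim genes. They numbered 0 with the coculture vitamin D3 labels turned (limma, 1028 at an unadjusted p under 0.05). That alternative was chosen after seeing the data, and it brings genes called for opposite signs closer by construction. The CYP24A1 difference lay between 1.44 and 1.49 in the alternatives run. Of 246 values of the 30 leading genes under alternatives, 0 changed sign, 22 newly passed the threshold and 1 call was lost. The lost call was that of CYP24A1 without pairing by cell line. Fits with an array left out were not counted for calls here. Most of the 246 values could not change sign. The genes were chosen for 1 sign in both lines, so leaving out a line keeps it. Alternatives that changed only the gene filter or the fit left the difference as it was. Signs changed in uncalled genes. VDR was 0.031 after centring, 0.022 with cyclic loess, and -0.23 and 0.21 with 1 line left out. TRPV6 was 0.0097 after centring and -0.144 to 0.078 with 1 line left out, and IL1B 0.017 and -0.157 to 0.105. CDH1 was -0.039 to 0.241 with 1 line left out. With averaged probe sets AXIN2 was 0.086, IGFBP3 -0.015 and EGR1 -0.0071, and AXIN2 was 0.0034 after centring. The cause was not tested.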

Other observations

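A few genes were more than 2-fold higher in Hke3 with vitamin D3. Beside CYP24A1 these were SYK, a tyrosine kinase (log2 difference 1.22 in Hke3 and -0.14 in HCT116), and PKIB (1.16 and 0.46). The others were GEM (1.05 and 0.54), TCN1, a vitamin B12 binder (1.04 and 0.20), and PADI3, a peptidylarginine deiminase (1.01 and 0.10). In HCT116 CYP24A1 alone exceeded 2-fold. SYK (5.61) and TCN1 (5.92) lay below the detection threshold in Hke3 alone, and TCN1 also on both HCT116 arrays (5.67 and 5.87). The differences of SYK and TCN1 are therefore approximate. These are values of 1 array pair each, chosen after they were seen, and the difference between lines was not tested.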
